A study of Mus musculus with 6 samples.

Results

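The genes described here code for the scaffold of the postsynaptic density and for the calcium-dependent kinase that sits in it. They were picked by gene symbol from the deposited brain RNA-seq table, and they are the scaffold genes Dlg4, Dlgap1, Shank1, Shank2, Shank3 and Homer3, the kinase genes Camk2a and Camk2b, and Nrgn, which codes for the calmodulin-binding protein neurogranin. These are 9 of the 38087 genes in the table, and all 9 passed the filter on low counts that left 16337 genes to test.

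The postsynaptic density is the protein layer under the membrane of an excitatory synapse. The Dlg4 protein, known as PSD-95, holds glutamate receptors and adhesion proteins at the membrane, the Dlgap proteins tie it to the Shank proteins, and Homer proteins join Shank to metabotropic glutamate receptors and to calcium stores. CaMKII, built from alpha (Camk2a) and beta (Camk2b) subunits, is switched on by calcium-loaded calmodulin during synaptic plasticity, and neurogranin binds calmodulin when calcium is low. In the mouse brain Camk2a and Nrgn are known as forebrain genes, and Homer3 as a gene of cerebellar Purkinje cells.

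RNA came from the cerebrum of 24-month-old, untreated C57BL6 mice, either wild type (WT, n = 3) or heterozygous for a loss of Sgo1 (Sgo1-/+, n = 3), the gene of the cohesin protector shugoshin-1. The mutation is carried in the germline, and per the study's methods the dissection included cortex and hippocampus and left out the medulla, the cerebellum and the olfactory bulb. The males were WT replicate 1 and Sgo1-/+ replicate 2, and the 4 remaining mice were female. A comparison without WT replicate 1 thus sets WT replicates 2 and 3, both female, against Sgo1-/+ mice of both sexes. All WT libraries belonged to run 258 and all Sgo1-/+ libraries to run 259, so the run and the genotype cannot be told apart. The comparison asks whether the transcripts of the aged Sgo1-/+ brain differ from those of the aged WT brain.

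Library totals ran from 11123917 to 12505561 estimated counts. For Sgo1 itself the WT libraries had counts of 0, 7 and 0 and the Sgo1-/+ libraries 4, 2 and 0 (here and below in the order of replicates 1 to 3), too few to check the genotype. WT replicate 1 stood apart from the other libraries: across genes its mean Pearson's r with the others was 0.935, against 0.967 to 0.970 for the rest, and genes are not independent replicates. The biological coefficient of variation over all genes was 25.9% with 6 libraries and 17.6% without WT replicate 1.

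The markers of WT replicate 1 went against the tissue named for it. It had the highest count of the 6 libraries for 8 of 8 Purkinje cell genes, 8 of 8 cerebellar granule neuron genes and 10 of 10 brain stem genes. Over all genes tested, 4580 of 16337 were highest in it. Summed over the list, normalized counts (counts scaled to a common library size) of the Purkinje cell genes were 19064 in WT replicate 1, 2099 and 2647 in the other WT libraries and 2906 to 3087 in Sgo1-/+. The brain stem sum was 4342 in WT replicate 1, 34.3 and 67.0 in the other WT libraries and 27.4 to 53.2 in Sgo1-/+, and 2 to 7 of the 10 genes were at 0 in each library other than WT replicate 1. Of the brain stem genes Fev differed least, at 7.05 in WT replicate 1 and 0.0 to 5.71 in the others. Cortex genes went the other way. All 6 were lowest in WT replicate 1, with a sum of 1550 there, 8054 and 11152 in the other WT libraries and 8138 to 9906 in Sgo1-/+, and none was at 0. The striatum genes were also lowest there, 8 of 8, with a sum of 2345 against 12364 to 27953 in the other 5 libraries. Genes of neurons in general differed less in their sum, which was 80370 in WT replicate 1 and 81241 to 106375 elsewhere. Single genes went both ways, and 3 of the 8 were lowest and 3 highest in WT replicate 1. Syt1 had 5380 there and 18496 to 23342 elsewhere, and Nefl had 10444 there and 3911 to 7089 elsewhere. The granule neuron sum was 16491 there and 1023 to 2025 elsewhere.

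**Figure D1:**
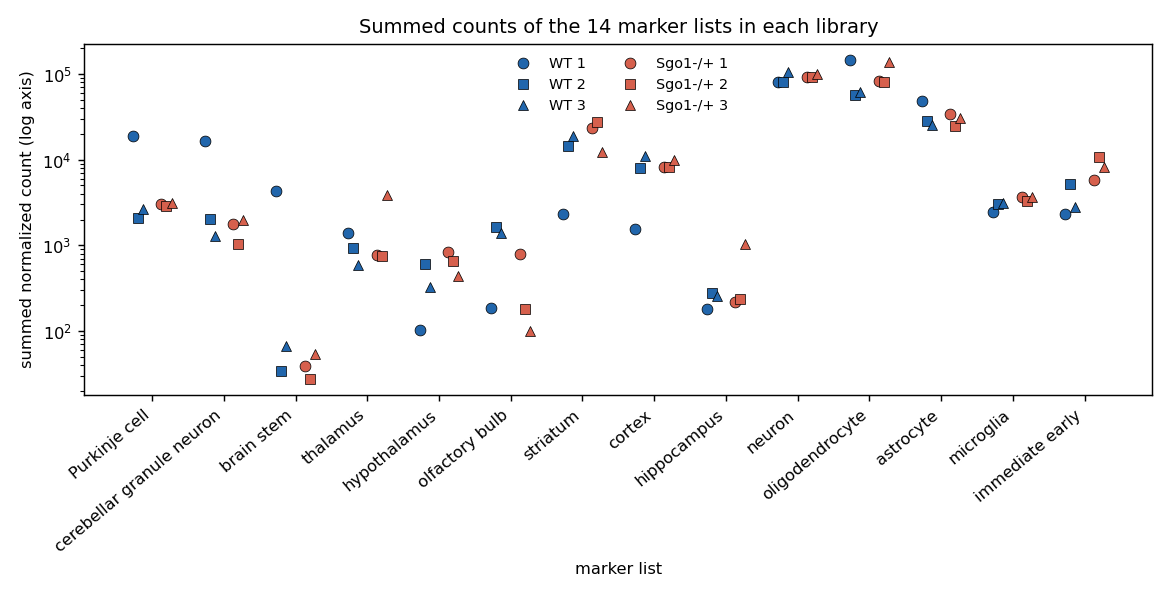
Summed normalized counts (log axis) of 14 marker lists, one point per library, WT in blue and Sgo1-/+ in red, with the marker shape giving the replicate. WT replicate 1 (blue circle) lies above the other 5 libraries for Purkinje cell, granule neuron and brain stem genes and below them for striatum and cortex genes, while Sgo1-/+ replicate 3 (red triangle) is highest for thalamus and hippocampus genes.

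The other 5 libraries also differed among themselves. Sgo1-/+ replicate 3 was highest for 6 of 7 hippocampus genes, whose sum was 1021 there and 178 to 276 in the other libraries, and its oligodendrocyte sum of 139657 was close to the 146747 of WT replicate 1 and above the 56946 to 82363 of the remaining libraries. Sgo1-/+ replicate 2 was highest for 8 of 8 striatum genes and 8 of 8 immediate early genes, which neuronal activity induces. The immediate early sum was 2314, 5250 and 2802 in WT and 5760, 10902 and 8253 in Sgo1-/+, above all WT libraries in every Sgo1-/+ library. Taken singly, Arc, Fos, Fosb, Egr1 and Nr4a1 did not overlap between the groups, whereas Junb, Npas4 and Dusp1 did. Over all genes tested, 6.81% did not overlap. Olfactory bulb genes summed to 187, 1641 and 1388 in WT and 781, 181 and 100 in Sgo1-/+. The sums were thus highest in WT replicates 2 and 3 and Sgo1-/+ replicate 1, although the named dissection left out the bulb. WT replicates 2 and 3 are the WT libraries kept when WT replicate 1 is left out. The sums for WT and Sgo1-/+ ran from 593 to 1405 and from 744 to 3904 for thalamus genes. They ran from 102 to 601 and from 441 to 834 for hypothalamus, and from 25123 to 49078 and from 25080 to 34371 for astrocyte genes. Hypothalamus genes went different ways in Sgo1-/+ replicate 3. It had 274 for Pmch and 101 for Hcrt, against at most 19.3 and 8.11 elsewhere. For Avp and Oxt it had 8.19 and 5.12, above WT replicate 1 (0.0 and 1.01) and below the rest (125 to 356 and 60.9 to 380). The sums of microglia genes, 2469 to 3131 and 3283 to 3688, did not overlap. Taken singly, only Csf1r of the microglia genes did not overlap, whereas C1qa, Cx3cr1, P2ry12 and Tmem119 did. The part that these differences in tissue markers play in the values below was not tested. In bulk tissue, fewer cells of a type and less RNA per cell cannot be told apart.

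WT replicate 1 also stood apart for the postsynaptic genes. It had the lowest normalized count of the 6 libraries for 8 of the 9 genes (88.9%, against 30.4% of all genes tested), and the highest for the remaining gene, Homer3. In that library 5 of the 9 genes, Dlg4, Dlgap1, Shank3, Camk2a and Nrgn, lay at least 2-fold under their median over the 6 libraries, as did 7.52% of all genes tested, and in the other 5 libraries none of the 9 did. The 9 genes together had 21725 normalized counts in WT replicate 1 and 68458 to 84434 in the others. Within the other 5 libraries, the highest value of a gene was 1.08 times (Camk2b) to 2.16 times (Homer3) its lowest.

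**Figure D2:**
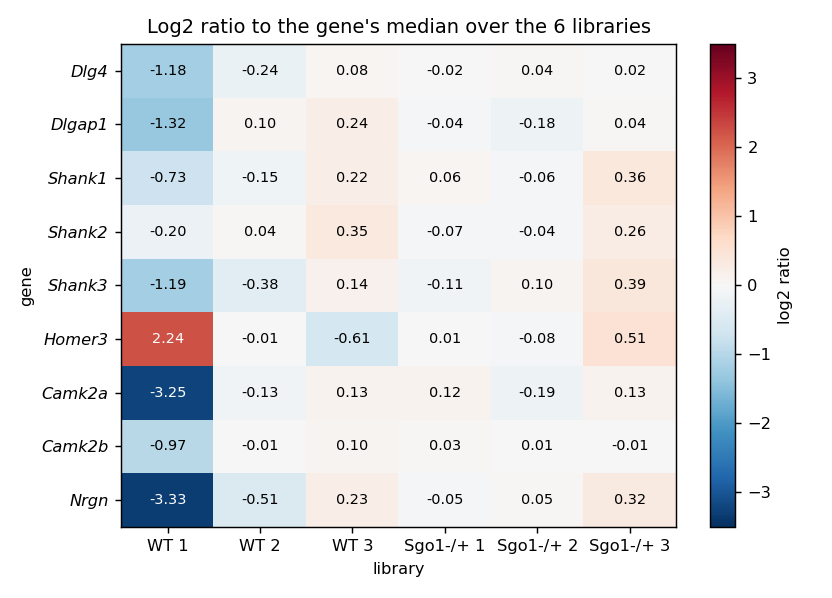
Log2 ratio of each gene's normalized count to its own median over the 6 libraries, genes in rows and libraries in columns, red above and blue below the median. The WT 1 column runs from -3.33 for Nrgn to 2.24 for Homer3, and no other column leaves the range from -0.61 to 0.51.

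Among the scaffolds at the membrane, Dlg4 (ENSMUSG00000020886; mm10, chromosome 11, 70017085 to 70045532) had 3149, 6028 and 7520 normalized counts in the WT libraries and 7033, 7306 and 7197 in the Sgo1-/+ libraries. WT replicates 1 and 2 lay below all Sgo1-/+ libraries and WT replicate 3 lay above them, so the groups overlapped. The WT mean was 5566 ± 2222 (SD, n = 3) and the Sgo1-/+ mean 7178 ± 138 (SD, n = 3). Sgo1-/+ against WT gave a log2 fold change of 0.37 (SE 0.296), which came to 0.08 (SE 0.120) once WT replicate 1 was left out. The 3 Sgo1-/+ values had a coefficient of variation of 1.92%, near the 1.19% that counting error alone gives, whereas the 3 WT values had one of 39.9%. Apart from Camk2b, the other genes varied more in Sgo1-/+, from 7.48% (Dlgap1, counting error 1.31%) to 22.9% (Homer3, counting error 5.02%).

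Dlgap1 (ENSMUSG00000003279; mm10, chromosome 17, 69969073 to 70821413), the linker between Dlg4 and the Shank proteins, had 2465, 6589 and 7256 normalized counts in WT and 5979, 5442 and 6319 in Sgo1-/+. WT replicate 1 was the lowest library, and the other WT libraries lay above all 3 Sgo1-/+ libraries. Its log2 fold change was 0.12 (SE 0.371) with all libraries and turned to -0.23 (SE 0.109) without WT replicate 1. It was the only one of the 9 genes whose groups did not overlap once WT replicate 1 was left out, where 17.9% of all genes tested did not overlap, and edgeR's quasi-likelihood test then gave it an unadjusted p-value of 0.0747.

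The Shank genes code for the scaffold layer deepest in the density. Shank1 (ENSMUSG00000038738; mm10, chromosome 7, 44310253 to 44358351) had 1766, 2634 and 3402 normalized counts in WT and 3039, 2807 and 3746 in Sgo1-/+. WT replicates 1 and 2 were the lowest libraries and Sgo1-/+ replicate 3 was the highest, with WT replicate 3 inside the Sgo1-/+ range. On the log2 scale the difference was 0.30 (SE 0.246) with all libraries and 0.08 (SE 0.162) without the first WT library.

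Shank2 (ENSMUSG00000037541; mm10, chromosome 7, 144001928 to 144424494) varied least between WT replicate 1 and the rest, with 1457, 1721 and 2145 normalized counts in WT and 1603, 1636 and 2014 in Sgo1-/+. WT replicate 1 held 90.9% of the lowest other library, and the Sgo1-/+ values lay within the WT range. Means were 1774 ± 347 (SD, n = 3) for WT and 1751 ± 228 (SD, n = 3) for Sgo1-/+. The fitted log2 difference was -0.02 (SE 0.172) with all libraries and -0.14 (SE 0.144) without WT replicate 1.

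Shank3 (ENSMUSG00000022623; mm10, chromosome 15, 89499623 to 89560261) had 1227, 2150 and 3078 normalized counts in WT and 2592, 2993 and 3657 in Sgo1-/+. The 2 lowest libraries were WT and the highest was Sgo1-/+ replicate 3, but WT replicate 3 lay above 2 of the 3 Sgo1-/+ libraries. Its log2 fold change of 0.52 (SE 0.322) became 0.24 (SE 0.194) without WT replicate 1. By edgeR's quasi-likelihood test with all libraries, Shank3 had the lowest unadjusted p-value of the 9 genes, 0.152.

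Homer3 (ENSMUSG00000003573; mm10, chromosome 8, 70282827 to 70294361) was the exception among the scaffolds, with 1687, 353 and 234 normalized counts in WT and 360, 337 and 506 in Sgo1-/+. The count in WT replicate 1 was 3.33 times that of the next highest library, Sgo1-/+ replicate 3, and the lowest library was WT replicate 3. The WT mean of 758 ± 806 (SD, n = 3) had an SD larger than itself, and it was 294 over WT replicates 2 and 3, against 401 ± 91.9 (SD, n = 3) in Sgo1-/+. All libraries together gave a log2 fold change of -0.92 (SE 0.704), and the 5 without WT replicate 1 gave 0.45 (SE 0.237). Over all annotated exons of Homer3 (3440 bases), 25.4% (874 bases) is shared with Ddx49 on the opposite strand. The library kit named in the labels does not keep the strand, so reads of that stretch cannot be assigned to either gene. Ddx49, an RNA helicase gene, had 368, 316 and 234 normalized counts in WT and 298, 284 and 339 in Sgo1-/+, so it varied far less than Homer3.

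**Figure D3:**
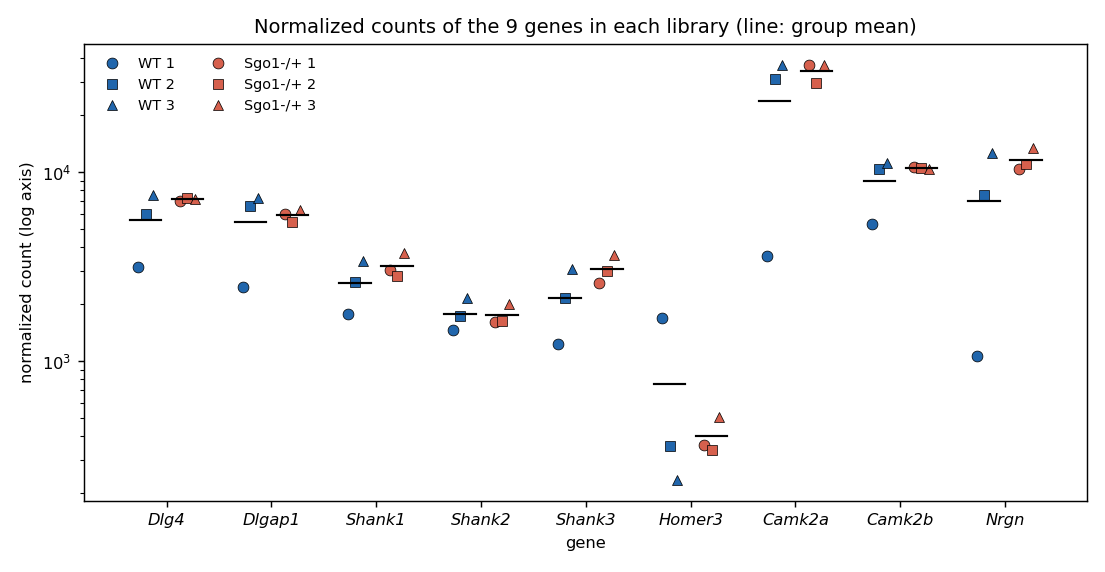
Normalized counts (log axis) of the 9 genes, one point per library, WT in blue and Sgo1-/+ in red, with the marker shape giving the replicate and a black line at each group mean. The WT 1 point lies under all others for every gene except Homer3, where its 1687 lies above all others, and the remaining 5 points of a gene differ by 1.08 (Camk2b) to 2.16 times (Homer3).

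The kinase genes differed in how far WT replicate 1 lay below the rest. Camk2a (ENSMUSG00000024617; mm10, chromosome 18, 60925618 to 60988152), which codes for the alpha subunit, had 3573, 31083 and 37030 normalized counts in WT and 36720, 29744 and 37022 in Sgo1-/+. The value in WT replicate 1 was lower than that of the next library, Sgo1-/+ replicate 2, by a factor of 8.32, and the other WT libraries spanned nearly the same range as Sgo1-/+. From all libraries the log2 fold change was 0.53 (SE 0.712), and from the 5 without WT replicate 1 it was 0.02 (SE 0.138).

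Camk2b (ENSMUSG00000057897; mm10, chromosome 11, 5969644 to 6066362), the gene of the beta subunit, had 5336, 10376 and 11160 normalized counts in WT and 10696, 10510 and 10354 in Sgo1-/+. WT replicate 1 held 51.5% of the lowest other library, and the 5 other values differed by 1.08 times at most. The coefficient of variation was 35.3% in WT and 1.63% in Sgo1-/+, where counting error alone gives 0.980%. The log2 fold change turned from 0.23 (SE 0.270) to -0.03 (SE 0.0955) when WT replicate 1 was left out.

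Nrgn (ENSMUSG00000053310; mm10, chromosome 9, 37544493 to 37552745) had 1064, 7524 and 12608 normalized counts in WT and 10340, 11104 and 13399 in Sgo1-/+. WT replicate 1 was at 14.1% of WT replicate 2, the next lowest library, and WT replicate 3 lay inside the Sgo1-/+ range. The WT mean was 7066 ± 5785 (SD, n = 3), or 10066 over WT replicates 2 and 3, and the Sgo1-/+ mean was 11614 ± 1592 (SD, n = 3). Nrgn had the highest log2 fold change of the 9 genes, 0.72 (SE 0.726), which dropped to 0.21 (SE 0.221) when WT replicate 1 was left out.

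No gene of the 9 passed the test of the genotype difference. With all 6 libraries, edgeR's quasi-likelihood test called 0 of 16337 genes (0.0%), with an adjusted p-value of 0.9999 for each of the 9. At an unadjusted p-value under 0.05 it called 333 genes (2.04%) and 0 of the 9, and the groups did not overlap for 1113 genes (6.81%) and for 0 of the 9. DESeq2's Wald test called 3 of the same 16337 genes and 0 of the 9. The fitted log2 fold change was above 0 for 7 of the 9 genes, with a median of 0.30, against a median of 0.00 over all genes tested. Without WT replicate 1 the median of the 9 was 0.08, with 6 above 0, and an unadjusted p-value under 0.05 was reached by 626 of 16617 genes (3.77%) and again by 0 of the 9. For single genes the exact two-sided permutation test over the 20 groupings of 3 against 3 libraries, whose smallest possible p-value is 0.1, gave 0.3 (Shank3 and Nrgn) to 1.0 (Dlgap1 and Shank2). These tests do not show that the genotypes are alike, since the standard errors with all libraries reached 0.726.

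**Figure D4:**
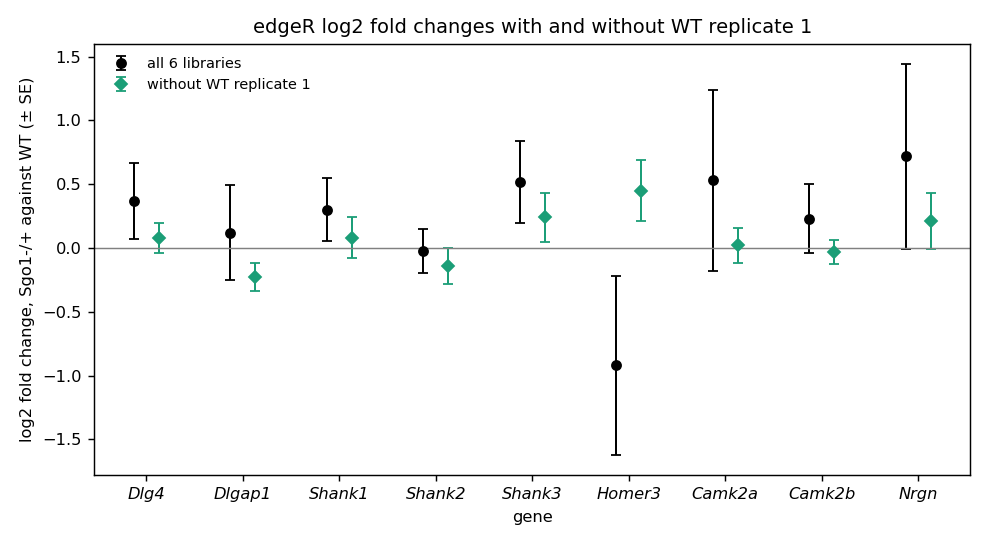
Log2 fold change of Sgo1-/+ against WT from edgeR (± SE) for each of the 9 genes, with all 6 libraries (black circles) and without WT replicate 1 (green diamonds). Leaving out that library brings Camk2a from 0.53 to 0.02 and Nrgn from 0.72 to 0.21, moves Dlgap1, Camk2b and Homer3 across 0, and shortens every error bar.

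Per kb of exon, levels can be set beside each other. In Sgo1-/+ the order of normalized counts per kb was Nrgn (7993 ± 1096; SD, n = 3), Camk2a (6095 ± 727), Camk2b (2374 ± 38.7), Dlgap1 (633 ± 47.3), Dlg4 (598 ± 11.5), Shank3 (404 ± 70.5), Shank1 (325 ± 49.8), Shank2 (174 ± 22.6) and Homer3 (141 ± 32.2). The ranges of the 3 libraries overlapped between Dlgap1 and Dlg4, between Shank3 and Shank1 and between Shank2 and Homer3, so these neighbours have no order here. Where each gene's median transcript length was used in place of its summed exons, Camk2a (19894) stood above Nrgn (7993) and Dlg4 (2539) above Dlgap1 (1555). In WT replicate 1 the order per kb was different, with Camk2b first at 1204, ahead of Nrgn at 733 and Camk2a at 631, and then Homer3 at 591. With median transcript lengths Camk2b (2774) was again first there, followed by Camk2a (2061), Dlg4 (1114), Nrgn (733) and Homer3 (708).

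The balance between paralogs within a library does not depend on library size. Of the summed counts per kb of the 4 CaMKII genes, Camk2a made up 21.2% in WT replicate 1 and 60.8% to 66.4% in the other libraries, and Camk2b made up 40.5% there and 23.7% to 27.5% elsewhere. The gamma subunit gene Camk2g, known outside the nervous system too, had 3466 normalized counts in WT replicate 1 and 2936 to 3332 in the others, and the delta subunit gene Camk2d had 1962 against 1091 to 1799. The low count of WT replicate 1 was thus seen for Camk2a and Camk2b and for neither of the other subunits.

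In the Homer family the paralogs went in opposite directions. Homer1, whose short form is induced by neuronal activity, had 620, 1441 and 2104 normalized counts in WT and 1759, 2868 and 2449 in Sgo1-/+, and Homer2 had 331, 1066 and 913 in WT and 720, 622 and 836 in Sgo1-/+. Both were lowest in WT replicate 1, where Homer3 was highest, and the share of Homer3 per kb was 87.6% there and 23.7% to 38.2% in the other libraries. The level of this share depended on the gene length used. With median transcript lengths it was 61.5% in WT replicate 1 and 6.66% to 12.6% elsewhere, and with no division by length 63.9% and 7.21% to 13.4%. The sum of the 3 genes differed little, 2638 normalized counts in WT replicate 1 against 2839 to 3828 elsewhere.

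**Figure D5:**
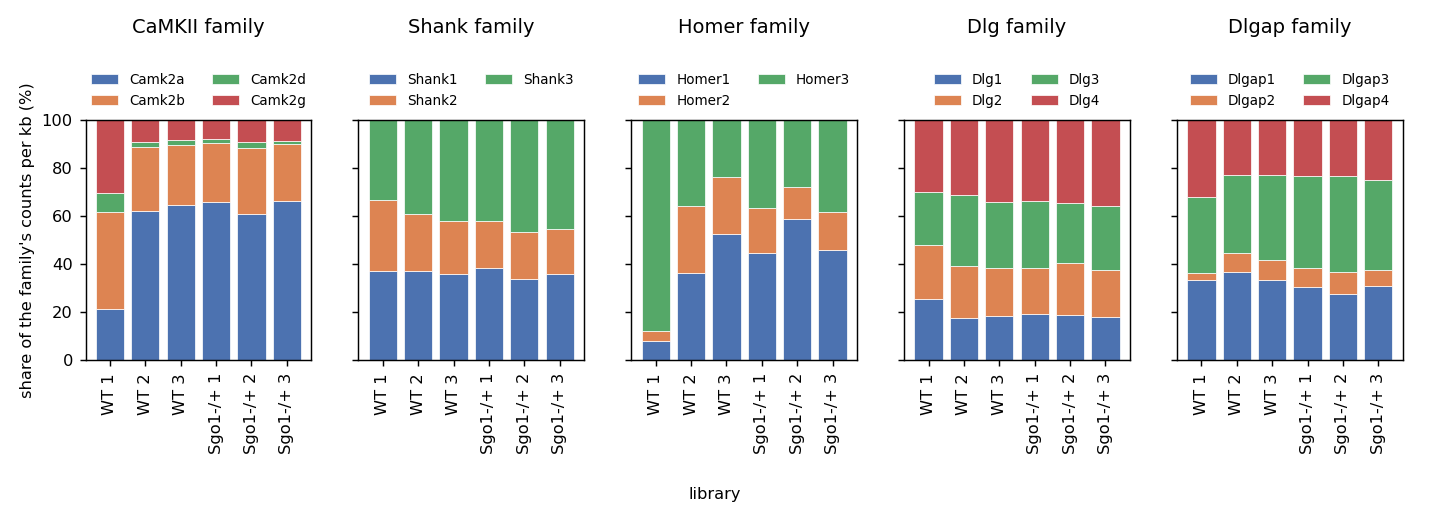
Share of each paralog in the summed normalized counts per kb of its family, in percent, one stacked bar per library for 5 families. In WT 1 the Camk2a segment is 21.2% and the Homer3 segment 87.6%, and in the Shank panel the Shank2 segment is narrower in all 3 Sgo1-/+ bars (18.9% to 19.7%) than in the WT bars (22.1% to 29.8%).

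In the Shank and Dlgap families, the shares of Shank2, Shank3, Dlgap1 and Dlgap3 did not overlap between the genotypes, and those of Shank1, Dlgap2 and Dlgap4 did. Shank2 made up 29.8%, 23.7% and 22.1% of the Shank counts per kb in the WT libraries and 19.7%, 19.3% and 18.9% in Sgo1-/+, a difference of -5.93 percentage points that was -3.62 without WT replicate 1. Shank3 made up 33.1%, 39.1% and 41.9% in WT and 42.0%, 46.7% and 45.2% in Sgo1-/+. Every Sgo1-/+ library was below every WT library for Shank2 and above every WT library for Shank3. The share of Shank1 overlapped, at 36.0% to 37.2% in WT and 34.0% to 38.3% in Sgo1-/+. The Shank3 groups nearly touched, and with median transcript lengths they overlapped. Dlgap1 made up 33.4%, 36.9% and 33.6% of the Dlgap counts per kb in WT and 30.7%, 27.6% and 31.0% in Sgo1-/+, lower in all Sgo1-/+ libraries, while its paralog Dlgap3 made up 31.8%, 32.5% and 35.4% in WT and 38.1%, 39.9% and 37.3% in Sgo1-/+. The shares of Dlgap2 (2.77% to 8.02% in WT, 6.64% to 9.31% in Sgo1-/+) and Dlgap4 (22.9% to 32.1% in WT, 23.2% to 25.0% in Sgo1-/+) overlapped. Of the 18 shares in the 5 families, 4 (22.2%) did not overlap between the genotypes, and shares of a family are tied to each other. In the exact two-sided permutation test Shank2, Shank3 and Dlgap1 each reached 0.1, the smallest value possible, which is 0.267 after Benjamini-Hochberg adjustment over the 8 shares tested. The summed striatum markers were 2345, 14376 and 18716 normalized counts in WT and 23727, 27953 and 12364 in Sgo1-/+, and their part in these shares was not tested.

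The further genes of the density were mostly low in WT replicate 1 too. Of 40 further genes of scaffolds, calmodulin, calcineurin, synaptic adhesion and spine signalling, 34 were lowest in WT replicate 1 (85.0%), 23 of them by at least 2-fold under their 6-library median. Over all genes tested, 30.4% were lowest there and 7.52% lay at least 2-fold under their median. Relative to that median, the middle log2 ratio of the 40 was -1.22 in WT replicate 1, while elsewhere it ran from -0.07 to 0.11. The lowest was Ddn, the gene of the dendrite protein dendrin, with 637 normalized counts in WT replicate 1 and 11054 to 11987 in the others. The 6 genes that were highest in WT replicate 1 were Camk2d, Camk2g, Camk2n2, Iqsec1, Cript and Dynll2. Dlgap2 had 98.7 normalized counts there against 653 to 886 elsewhere, and Dlg1, Dlg2 and Dlg3 had 1635, 1765 and 1023 against 2072 to 3412 elsewhere.

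Against genotype, 0 of these 40 genes passed an unadjusted p-value of 0.05 with all libraries (2.04% of all genes tested did). Of their log2 fold changes 35 of 40 were above 0 with a median of 0.24, against 8138 of 16337 above 0 over all genes tested. Without WT replicate 1 the median of the 40 was -0.01, with 18 above 0 and 22 below. Homer2 was then the only one past an unadjusted p-value of 0.05 in edgeR's quasi-likelihood test, at a log2 fold change of -0.45 (SE 0.144, unadjusted p = 0.0163). This is 2.5% of the 40 genes, against 3.77% of all genes tested. The groups of 3 of the 40 genes did not overlap without WT replicate 1 (17.9% of all genes tested), namely Homer2 and Iqsec2 (lower in Sgo1-/+) and Dynll2 (higher).

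The genes whose profiles over the 6 libraries were nearest to each of the 9 were found among 11287 other genes by the root mean square difference of log2 counts centred on each gene's mean. The nearest to Camk2b was Bai1, an adhesion receptor gene, at 0.0243, with 2289 normalized counts in WT replicate 1 and 4420 to 4784 elsewhere. Those nearest to Camk2a were Fhl2 (0.0776) and Kalrn (0.140), and the nearest to Nrgn was Mas1 (0.0800). For the scaffolds the nearest were Slc9a9 (0.0478) for Dlg4, Ipcef1 (0.0446) for Dlgap1, Rtn4rl1 (0.0511) for Shank1, Daglb (0.0321) for Shank2 and Satb1 (0.0672) for Shank3. Homer3 had no close match: its nearest, Chd7, differed by 0.188, with 1280 normalized counts in WT replicate 1 and 228 to 328 elsewhere. Among the 9 genes themselves, Dlg4 and Camk2b were nearest to each other (0.106), Camk2a was nearest to Nrgn (0.219), and Homer3 was at least 1.04 from every other. These distances rest on 6 libraries, WT replicate 1 among them, and were not computed without it.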

How the data were processed

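RNA from the brain was sequenced as paired reads on an Illumina MiSeq, after an RNA TruSeq V2 library kit, per the labels. The authors aligned to mm10 in Strand NGS and deposited an estimated count for each Ensembl gene in each of 6 libraries, without normalization. BWA and edgeR also appear in the submitters' processing notes, without a role. Log2 values, deposited by the authors as normalized with DESeq and centred on each gene's median, served as an alternative only. Columns holding the authors' own fold changes were not used. The sample names in the column headers gave each library's group, and the sex genes of each library matched its labelled sex.

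Estimated counts were rounded and fitted in R 4.3.3 with edgeR 4.0.16 (TMM, default filter on low counts, quasi-likelihood test, no covariates) over 16337 genes, Benjamini-Hochberg adjusted, at a threshold of 0.05. Normalized counts are rounded counts scaled to the mean TMM library size. The SE is the size of the log2 fold change divided by the square root of F. Likeness used log2 normalized counts plus 0.5, among genes with a mean of at least 100. Lengths behind the values per kb are the summed exons of the coding transcripts in the GENCODE M21 basic annotation. The exon overlap of Homer3 with Ddx49 was taken over all annotated exons instead. Alternatives were DESeq2 1.42.0, limma 3.58.1 on log2 counts and on the authors' log2 values, DESeq2 size factors, no filter, sex as a covariate, a replicate block, leaving out single libraries and other gene lengths. The scripts were tested on simulated data.

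The 9 genes, the 40 further genes, the marker lists and the rule for named genes (the 9, their paralogs, further genes past an unadjusted p of 0.05 or without overlap, the nearest profiles and the markers) were chosen with earlier results of these data known. Ddn and the genes highest in WT replicate 1 were named after their values were seen. A further near profile is not reported here. Values at or under 3 counts have no order, which covers counting error only.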

Additional observations from a re-analysis of the deposited data

How the results depend on the processing

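The 9 log2 fold changes were computed under 13 alternatives. None of the 9 passed an adjusted p-value of 0.05 in any of them. Leaving out WT replicate 1 turned Dlgap1, Camk2b and Homer3, and leaving out other libraries turned Shank2. Over the 6 fits with a library left out, the values ran from -0.23 to 0.39 for Dlgap1, from -0.03 to 0.42 for Camk2b, from -1.34 to 0.45 for Homer3 and from -0.14 to 0.14 for Shank2. The share difference ran from -27.5 to 4.45 percentage points for Homer3 and from -1.77 to 0.374 for Shank1. The other 173 values for single genes and shares kept their direction, but sizes could still move. Camk2a went from 0.53 to 1.1 with limma on log2 counts and to 1.02 with sex as a covariate. In the same 2 alternatives Nrgn went from 0.72 to 1.31 and 1.19, and Homer3 from -0.92 to -0.4 and -0.35. The number of genes called was 3 with DESeq2 and 0 to 1 with a library left out (1 without Sgo1-/+ replicate 2). The number of genes with an unadjusted p-value under 0.05 was 563 with no filter, which tests more genes, and 240 to 1040 with a library left out, 626 without WT replicate 1 and 1040 without WT replicate 3. Of the 9 genes, 0 to 1 reached it with a library left out, the 1 being Shank3 without WT replicate 3 (edgeR's quasi-likelihood test, unadjusted p = 0.0231). Of the 40 further genes, 0 to 2 did, the 2 (5.0%) also without WT replicate 3. In that fit 6.21% of all genes tested reached it. The count of genes whose groups do not overlap was 2980 without WT replicate 1, an alternative chosen after the data were seen, as was the median transcript length. The causes were not tested.

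With the replicate block, 280 genes had an unadjusted p-value under 0.05 (1.71%), among them 1 of the 9 and 1 of the 40. These were Shank3, with an unadjusted p-value of 0.0314 in edgeR's quasi-likelihood test, and Homer1, with an unadjusted edgeR p-value of 0.0212. Deviations of same-numbered libraries from their group means correlated at -0.146, 0.014 and -0.207 across genes. No WT library correlated best with its own number. Deviations within a group are tied to each other through its mean, so these values cannot settle whether the replicate numbers pair the mice.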
